A study of Homo sapiens with 24 samples.

Results

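Addition of oxozeaenol to PI103 was examined in AGS, a cell line established from a human gastric adenocarcinoma, by setting cultures given both inhibitors against cultures given PI103 alone. The comparison rests on 8 of the 24 RNA-seq libraries of the series, 4 per treatment, taken by their labels, and covers every gene of the count table, 23368 in all. The PI103 cultures received 0.7 µM PI103 for 24 h. The combination cultures received 0.35 µM PI103 together with 0.25 µM (5Z)-7-oxozeaenol for 24 h, which is 50% of the concentration at which each agent was used alone. The contrast therefore adds oxozeaenol and lowers PI103 at once, and the effects of these changes cannot be told apart. Further groups of 4 libraries from the same wild-type line served as reference. They were control cultures labelled as having no treatment, oxozeaenol alone at 0.5 µM, and the MEK inhibitor PD0325901 alone at 0.035 µM. The last was PI103 at 0.35 µM with 0.0175 µM PD0325901. The spread behind the p-values was estimated over all 24 libraries unless another fit is named. The labels do not say whether the controls received vehicle. The labels number the replicates as batches 1 to 4 without saying how the cultures were separated, so p-values measure the spread between these libraries, which may be technical, and everything below describes 1 cell line.

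PI103 inhibits the class I PI3 kinases and mTOR, which carry growth factor and nutrient signals to protein synthesis, metabolism and the FOXO transcription factors. Oxozeaenol is a resorcylic acid lactone that binds covalently to a cysteine in the ATP site of TAK1 (MAP3K7), the kinase that relays cytokine, TGF-beta and stress signals to NF-kB, p38 and JNK, and it also reacts with other kinases that carry a cysteine at that place, MEK among them. Genes under ERK, NF-kB, TGF-beta and PI3 kinase control, and the programs of amino acid supply, protein folding and interferon response that lie further downstream, were therefore described in turn.

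The 4 PI103 libraries held 57196637 to 65141500 gene counts and the 4 libraries of the combination 52736494 to 77704666, and between 15996 and 16360 genes had at least 1 count. The first principal component of the 8 libraries, with 50.3% of the variance, separated the treatments without overlap. The second, with 15.9%, set replicate 4 of both treatments (22.0 and 27.2) apart from the other 6 libraries (-20.6 to -2.60). Counts without replicate 4 are given for all genes and for some of the gene lists, and other lists may also change without it. Epithelial markers were abundant, with EPCAM at 733 to 842 CPM (read counts scaled to the library total), whereas the leukocyte marker PTPRC, the endothelial markers PECAM1 and CDH5 and the fibroblast markers COL1A2 and DCN were too low to be tested, and CD68, VWF and COL3A1 stayed at or below 1.28 CPM in every library of the 2 treatments. LYZ, listed among the leukocyte markers, measured 187 to 333 CPM. COL1A1, listed among the fibroblast markers, was also well detected, and its values are given with the largest falls below.

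Of 13947 genes with enough counts to be tested, 2553 (18.3%) differed between the combination and PI103 at an adjusted p under 0.05, the threshold used throughout. Of these, 1309 (9.39% of genes tested) were higher in the combination and 1244 (8.92%) were lower. Most differences were small, with a median size of 1.42-fold among the called genes, and 523 of them reached 2-fold, 308 upward and 215 downward. Without replicate 4 of both treatments 1580 genes were called. The CPM of the 2 treatments did not overlap for 4074 genes (29.2%). In these bulk cultures fewer cells of a kind and less RNA per cell cannot be told apart.

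Among called genes that averaged 5 CPM or more over the 8 libraries and moved one way in all 4 batches, the largest rise was in TNNT2, the cardiac form of troponin T (chr1:201359008-201377762, GRCh38, minus strand), which measured 1.2, 1.08, 0.840 and 0.905 CPM in PI103 replicates 1 to 4 and 13.5, 11.6, 11.8 and 13.0 CPM in the combination. Every combination library lay far above every PI103 library, a log2 fold change of 3.63 ± 0.230 (SE; 12.4-fold, adjusted p = 3.38e-11). PAGE4, a cancer-testis antigen (chrX:49829260-49833973, plus strand), measured 13.3, 11.8, 13.5 and 22.2 CPM with PI103 and 130, 110, 101 and 167 CPM with the combination (log2 fold change 3.06 ± 0.267, adjusted p = 1.58e-08). CCDC80, a secreted extracellular matrix protein (chr3:112596794-112649530, minus strand), measured 8.78, 9.75, 7.63 and 10.4 CPM with PI103 and 74.3, 61.8, 59.5 and 65.0 CPM with the combination (log2 fold change 2.83 ± 0.134, adjusted p = 9.39e-14). These 3 genes were followed by ALPPL2, a placental-type alkaline phosphatase (2.41), CCDC141 (2.31) and CFB, complement factor B (2.01), and then by ARRDC3, an arrestin-domain protein (1.77), TP53I11 (1.74), VSNL1, a neuronal calcium sensor (1.70), USH1C, a scaffold of microvilli (1.68), the glycine transporter SLC6A9 (1.65) and RGN, a calcium-binding lactonase (1.64), all given as log2 fold changes. CFB shares 45.5% of its annotated exon length with C2 and a readthrough gene on the same strand, so its counts are less certain than those of the others. ALPPL2, like CST4 below and HLA-B further on, belongs to a family of near-identical genes between which the counting could divide reads.

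The largest fall by the same rule was in ADAMTSL2, a secreted glycoprotein that binds microfibrils (chr9:133532164-133575519, plus strand). It measured 10.1, 8.22, 9.67 and 10.1 CPM with PI103 and 0.683, 0.534, 0.783 and 0.720 CPM with the combination, a log2 fold change of -3.81 ± 0.236 (14.0-fold lower, adjusted p = 2.04e-11). SLCO2A1, the prostaglandin transporter (chr3:133928145-134052184, minus strand), measured 19.0, 17.5, 17.5 and 15.7 CPM with PI103 and 3.25, 4.79, 2.22 and 2.05 CPM with the combination (log2 fold change -2.49 ± 0.417, adjusted p = 0.000171). Several of the falling genes encode matrix or the cytoskeleton. COL1A1, the alpha 1 chain of type I collagen (chr17:50183289-50201632, minus strand), measured 32.1, 33.3, 32.3 and 34.2 CPM with PI103 and 8.78, 9.35, 9.0 and 10.7 CPM with the combination (log2 fold change -1.80 ± 0.0913, adjusted p = 2.36e-13). COL4A1, a basement membrane collagen (chr13:110148963-110307233, minus strand), fell by 1.82 on the log2 scale, FSCN1, the actin-bundling protein fascin, by 1.85, and TIAM1, an exchange factor for RAC, by 1.85. The other leading falls were in the noncoding RNA FLJ22447 (-2.08), the salivary cystatin CST4 (-1.90), PRR9 (-1.77), coagulation factor F5 (-1.66), LBH (-1.64) and MALL, a raft-associated membrane protein (-1.62). None of the 24 leading genes had overlapping treatments, and each was called whichever of the 8 libraries was left out.

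**Figure D1:**
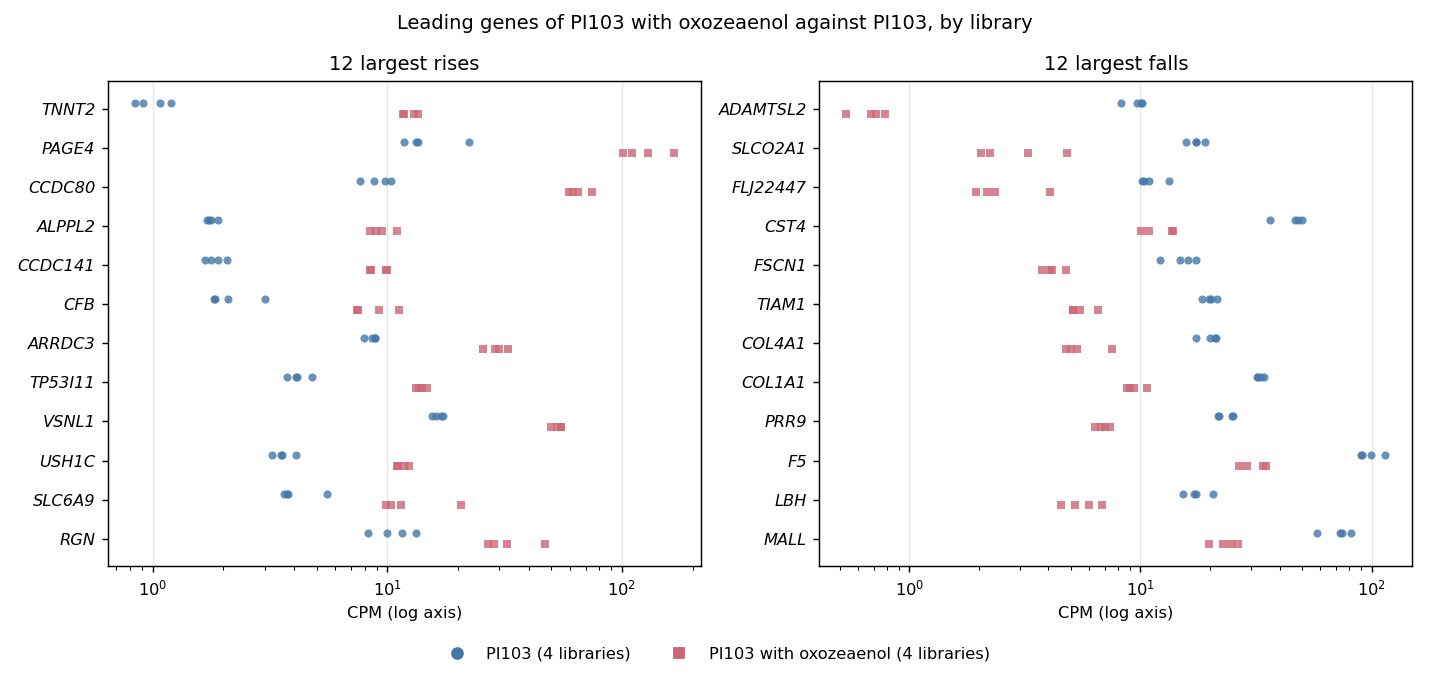
CPM on a log axis for the 12 largest rises (left) and the 12 largest falls (right), with 1 point per library, circles for the 4 PI103 libraries and squares for the 4 combination libraries. For every gene the squares lie on one side of all circles, the widest gaps being those of TNNT2 on the left and ADAMTSL2 on the right.

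Genes of the amino acid response, which the transcription factor ATF4 drives when amino acids or mTOR signalling change, were higher in the combination. Of 26 members tested, 10 rose and 0 fell, against 9.39% and 8.92% of all genes, and the list's median log2 fold change was 0.67 where that of all genes was 0.00453. The best supported was SLC3A2, the heavy chain shared by several amino acid exchangers, which measured 143, 165, 133 and 146 CPM with PI103 and 225, 268, 209 and 215 CPM with the combination (log2 fold change 0.65 ± 0.105, adjusted p = 7.35e-05). Its partner SLC7A5, the leucine transporter LAT1, measured 173, 219, 162 and 191 CPM with PI103 and 267, 388, 273 and 277 CPM with the combination (0.69 ± 0.158, adjusted p = 0.00261). SLC1A4, a neutral amino acid transporter, rose from 11.9 ± 1.66 to 23.4 ± 5.15 CPM (SD, n = 4; adjusted p = 0.000404), and SLC6A9, the glycine transporter named above, from 4.16 ± 0.928 to 13.0 ± 5.08 CPM. In all 4 genes replicate 2 of the combination was the highest library.

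That library stood further apart in other members of the list. ASNS, asparagine synthetase, measured 27.3, 34.1, 24.9 and 25.8 CPM with PI103 and 47.2, 189, 50.7 and 53.7 CPM with the combination. The treatments did not overlap, and the log2 fold change of 1.60 ± 0.365 (adjusted p = 0.00335) became 0.85 without combination replicate 2 (adjusted p = 0.0172). The calls for CHAC1, a glutathione-degrading enzyme (1.52, adjusted p = 0.0344), the cystine transporter SLC7A11 (1.47, adjusted p = 0.0358) and the stress factor NUPR1 (2.42, adjusted p = 0.0101) ended without that library, at 0.63 (adjusted p = 0.249), 0.36 (adjusted p = 0.4) and 1.33 (adjusted p = 0.087). CHAC1 was also not called without PI103 replicate 1, 3 or 4, nor SLC7A11 without any 1 of the PI103 libraries, and with the replicate number as a block in the model SLC7A11 had an adjusted p of 0.0506. In a fit of the 8 libraries alone, ASNS (adjusted p = 0.0684), CHAC1 (0.131) and SLC7A11 (0.179) were not called. Without combination replicate 2, 6 members of the list were called higher. The remaining called members were CEBPG and JDP2, both bZIP factors. Of the exon length of ASNS, 44.6% is shared with a same-strand neighbour.

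Serine, glycine and one-carbon enzymes, which supply glycine and formyl groups and are partly under ATF4, had 5 of 19 tested members higher and 0 lower (median log2 fold change 0.15). GLDC, the glycine decarboxylase, measured 5.24, 6.16, 5.28 and 7.33 CPM with PI103 and 14.9, 13.7, 16.7 and 19.9 CPM with the combination (log2 fold change 1.44 ± 0.214, adjusted p = 3.31e-05). PSAT1, a serine synthesis enzyme, measured 109, 124, 107 and 104 CPM with PI103 and 161, 412, 177 and 164 CPM with the combination (1.04 ± 0.261, adjusted p = 0.00627). Combination replicate 2 was again high: without it PSAT1 stood at 0.59 (adjusted p = 0.0539) and 2 members of the list were called. In a fit of the 8 libraries alone PSAT1 had an adjusted p of 0.0612. Other called members were MTHFD2, a mitochondrial folate enzyme (0.71, adjusted p = 0.00681; 0.47 without that library, adjusted p = 0.0455), and PYCR1. Among 11 amino acid transporters outside the ATF4 list, 5 rose and 1 fell (SLC38A5; 0 without replicate 4 of both treatments). The best supported was the glutamate transporter SLC1A3, at 78.8, 81.8, 78.1 and 76.6 CPM with PI103 and 165, 175, 173 and 169 CPM with the combination (log2 fold change 1.12 ± 0.0819, adjusted p = 2.79e-10), a gene in which combination replicate 2 lay close to the others.

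In ASNS, PSAT1 and SLC3A2 the combination stayed below the control level. ASNS averaged 1499 ± 331 CPM in the control and 414 ± 143 CPM with oxozeaenol alone (SD, n = 4), and PSAT1 1862 ± 164 and 738 ± 205 CPM. SLC3A2 averaged 562 ± 36.3 CPM in the control and 347 ± 49.6 CPM with oxozeaenol alone. In each of these genes the order of the means was PI103, combination, oxozeaenol, control, from lowest to highest. For the amino acid transporters outside the ATF4 list the median log2 fold change of the combination against control was 0.32.

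The endoplasmic reticulum chaperones, which fold secreted and membrane proteins and rise when unfolded protein accumulates, had 11 of 20 tested members higher and 0 lower, with a median log2 fold change of 0.34. CRELD2 measured 31.6, 38.3, 36.5 and 33.8 CPM with PI103 and 69.6, 54.4, 65.4 and 54.7 CPM with the combination (log2 fold change 0.80 ± 0.133, adjusted p = 9.08e-05). The abundant disulfide isomerase PDIA4 measured 685, 698, 704 and 656 CPM with PI103 and 1190, 951, 1099 and 968 CPM with the combination (0.62 ± 0.118, adjusted p = 0.000448). The separation was complete in both genes, although the changes were under 2-fold. MANF, a secreted survival factor of the reticulum, rose from 97.7 ± 5.86 to 155 ± 13.4 CPM, and PDIA6 from 910 ± 29 to 1192 ± 64.7 CPM. HSPA5 (BiP), the master chaperone of the compartment, was at 0.39 ± 0.129 (adjusted p = 0.0353), a call that was lost in 6 of the 8 fits that left out 1 library. The remaining called members were HYOU1, SDF2L1, CALR, DNAJB11, HSP90B1 and DNAJB9. The number called fell to 5 without PI103 replicate 1 or 3, to 6 without PI103 replicate 4 or combination replicate 1 or 3, and to 5 without replicate 4 of both treatments. Heat shock proteins and cochaperones of the cytosol and mitochondria, separate folding systems, had 1 member higher (CRYAB) and 1 lower (BAG3) of 19 tested. Each share was 5.26%, against 9.39% and 8.92% of all genes. CRYAB was called in 1 of the 8 fits that left out a library, and BAG3 in all 8.

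Genes of the interferon response and antigen presentation were higher in the combination in 13 of 29 tested members and lower in 1, with a median log2 fold change of 0.34. OASL, an antiviral protein related to the oligoadenylate synthetases, measured 20.7, 19.7, 18.6 and 21.2 CPM with PI103 and 55.9, 47.7, 51.1 and 49.4 CPM with the combination (log2 fold change 1.35 ± 0.112, adjusted p = 2.75e-09). IFIT1, which binds RNA that lacks host cap methylation, measured 42.2, 38.0, 44.0 and 42.4 CPM with PI103 and 73.8, 69.4, 76.7 and 80.0 CPM with the combination (0.85 ± 0.121, adjusted p = 1.29e-05). In both genes the highest PI103 library lay well below the lowest combination library. OAS2 rose from 0.719 ± 0.120 to 2.95 ± 0.221 CPM and IFI27 from 4.91 ± 0.138 to 8.99 ± 0.835 CPM. The other called members were IFI6, IFIH1, IFIT3, IFIT2, PSMB8, HLA-B, DDX58, ISG15 and B2M. The single member that fell was IRF7, an interferon-induced transcription factor, at 17.7 ± 2.08 CPM with PI103 and 11.2 ± 1.06 CPM with the combination (log2 fold change -0.66, adjusted p = 2.87e-05).

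Promoters of 1 member from each of these lists are shown because they hold the element by which the list is usually defined. The RefSeq windows (GRCh38.p14) run from 250 bases before the annotated start to 50 after it, and the 250 bases before the start are printed 5′ to 3′ on the strand of the gene, with matches in capitals. The C/EBP-ATF response element was searched as TGATG and AA with 1 base between them, the ER stress response element as CCAAT and CCACG with 9 bases between them and the interferon-stimulated response element as GAAA and GAAA with 2 bases between them, each on both strands of 35116 windows. ASNS (chr7:97872409-97872658, minus strand) holds TGATGAAA beginning 68 bases before the start, CRELD2 (chr22:49918384-49918633, plus strand) the ER element beginning 80 bases before it, in reverse, and IFIT1 (chr10:89392373-89392622, plus strand) 2 interferon elements in reverse, beginning 116 and 103 bases before it.
ASNS: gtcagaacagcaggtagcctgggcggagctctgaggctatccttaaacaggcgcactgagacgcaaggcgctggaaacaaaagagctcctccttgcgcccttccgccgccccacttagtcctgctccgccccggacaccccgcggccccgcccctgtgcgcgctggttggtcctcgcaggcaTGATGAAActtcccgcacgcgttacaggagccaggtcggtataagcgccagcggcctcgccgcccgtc
CRELD2: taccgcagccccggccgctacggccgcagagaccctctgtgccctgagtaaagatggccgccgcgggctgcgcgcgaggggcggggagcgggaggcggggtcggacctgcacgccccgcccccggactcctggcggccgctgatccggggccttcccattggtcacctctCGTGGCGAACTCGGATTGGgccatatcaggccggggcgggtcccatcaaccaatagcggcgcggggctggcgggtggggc
IFIT1: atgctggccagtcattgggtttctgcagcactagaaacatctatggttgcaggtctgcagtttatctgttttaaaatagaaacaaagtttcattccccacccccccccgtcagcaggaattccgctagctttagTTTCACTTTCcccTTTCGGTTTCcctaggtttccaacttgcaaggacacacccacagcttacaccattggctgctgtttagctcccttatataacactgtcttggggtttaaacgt

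The C/EBP-ATF element was present in 3.62% of all windows and in 3 of the 8 windows available for called members of the ATF4 list (SLC3A2, ASNS and CHAC1). The ER element was present in 0.0769% of all windows and in 4 of 11 called chaperones (CRELD2, CALR, HSPA5 and HSP90B1). The interferon element was present in 3.57% of all windows and in 7 of the 9 windows available for called interferon genes (IFI27, IFIT1, IFI6, IFIH1, IFIT3, ISG15 and B2M). Over all members with a window, called or not, the elements were present in 5 of 24 for the ATF4 list, 6 of 19 for the chaperones and 14 of 21 for the interferon list. A match describes the letters in the window and not a bound site.

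Complement genes, whose products tag and lyse microbes and are partly inducible by interferon, rose in 5 of 11 tested members and fell in 0, with a median log2 fold change of 0.70. CFB measured 3.00, 1.82, 1.85 and 2.10 CPM with PI103 and 11.2, 7.46, 9.22 and 7.40 CPM with the combination (2.01 ± 0.240, adjusted p = 1.49e-06). C1R, a protease of the first component, rose from 2.54 ± 0.480 to 4.71 ± 0.230 CPM, and clusterin (CLU) from 10.1 ± 1.01 to 16.5 ± 1.97 CPM. C1S was called at low levels, 0.0658 ± 0.0124 and 0.274 ± 0.0706 CPM. CFI was barely detected with PI103, at 0.0154, 0.0347, 0 and 0.0162 CPM, and measured 0.40, 0.735, 0.445 and 0.398 CPM with the combination. Apolipoproteins rose in 4 of 8 tested members (APOD, APOL1, APOE and APOC1), and APOA1 was called lower, though in 1 of the 8 fits that left out a library and not without replicate 4 of both treatments. APOD, a lipocalin that carries small lipids, measured 7.21, 6.69, 5.78 and 6.07 CPM with PI103 and 16.9, 13.6, 15.3 and 14.4 CPM with the combination (log2 fold change 1.23 ± 0.174, adjusted p = 1.53e-05).

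Targets of TGF-beta and BMP signalling, the receptor pathways that act through SMAD proteins and in part through TAK1, had a larger share of lower members than any of the other lists examined. Of 15 tested members 11 were lower and 0 higher, with a median log2 fold change of -0.56. SMAD7, the inhibitory SMAD induced by TGF-beta, measured 36.1, 36.4, 37.5 and 36.3 CPM with PI103 and 22.7, 21.9, 21.6 and 19.8 CPM with the combination (log2 fold change -0.77 ± 0.0769, adjusted p = 5.56e-08). ID1, a BMP-induced inhibitor of basic helix-loop-helix factors, measured 171, 201, 193 and 198 CPM with PI103 and 111, 88.8, 105 and 86.9 CPM with the combination (-0.96 ± 0.174, adjusted p = 0.000306). The combination libraries of both genes were all lower than any PI103 library. ID3 fell from 84.2 ± 6.62 to 45.4 ± 6.52 CPM, and TGFBI, a matrix adaptor, from 17.5 ± 2.62 to 9.45 ± 0.637 CPM. COL4A1, named above, and ID2, BAMBI, SKIL, SMAD6 and LTBP2 were also called lower. Without PI103 replicate 3 the number called lower was 7.

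Proteases of the plasminogen and matrix metalloproteinase systems, which degrade matrix, had 4 of 8 tested members lower and 0 higher (median log2 fold change -0.61). PLAT, tissue plasminogen activator, measured 7.32, 5.01, 5.52 and 5.38 CPM with PI103 and 3.36, 2.81, 2.22 and 2.23 CPM with the combination (-1.12 ± 0.249, adjusted p = 0.00199). Other members called were low: SERPINB2, an inhibitor of the urokinase activator, averaged 0.866 ± 0.353 and 0.165 ± 0.0295 CPM, and MMP1, the interstitial collagenase, 0.203 ± 0.0851 and 0.0418 ± 0.0237 CPM. The mesenchymal filament VIM fell from 16.3 ± 0.620 to 11.1 ± 0.370 CPM (log2 fold change -0.56, adjusted p = 8.18e-05). It was 1 of 3 members called lower among 9 tested genes of epithelial-mesenchymal transition, with TGFBI and ITGA5, and 0 were higher; 5 were lower without combination replicate 2, and 2 without PI103 replicate 2 or 3 or combination replicate 1 or 4. Wnt and beta-catenin targets had 5 of 15 tested members lower (NKD1, AXIN2, NOTUM, SP5 and CCND1) and 1 higher (DKK1). These shares were 33.3% and 6.67%, against 8.92% and 9.39% of all genes. NKD1, a Wnt feedback inhibitor, measured 73.5, 65.6, 70.7 and 74.8 CPM with PI103 and 26.7, 27.5, 21.7 and 24.9 CPM with the combination (log2 fold change -1.5 ± 0.133, adjusted p = 8.69e-09). AXIN2 fell less, from 586 ± 23.0 to 420 ± 25.1 CPM, and 25.2% of its exon length is shared with a same-strand neighbour.

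The ERK pathway induces its own inhibitors, so their transcripts read out its activity. DUSP6, the ERK phosphatase, measured 57.7, 44.5, 47.4 and 46.6 CPM with PI103 and 36.0, 40.3, 33.1 and 30.4 CPM with the combination. The values did not overlap, but the difference of -0.49 ± 0.267 was not called (adjusted p = 0.224; 0.00102 in a fit of the 8 libraries alone). SPRY4 (-0.17 ± 0.252, adjusted p = 0.694), the ETS factor ETV5 (0.04 ± 0.434, adjusted p = 0.968) and the immediate-early factor EGR1 (-0.86 ± 0.436, adjusted p = 0.19) were not called either. Among all 31 tested members of the ERK and immediate-early list, 10 fell and 3 rose, with a median log2 fold change of -0.17. The share that rose, 9.68%, was near the 9.39% of all genes. IER3, an early response gene, measured 29.1, 25.3, 23.3 and 23.3 CPM with PI103 and 12.5, 16.2, 10.8 and 11.5 CPM with the combination (-0.99 ± 0.208, adjusted p = 0.00147). JUNB, a subunit of AP-1, fell from 29.8 ± 2.78 to 16.4 ± 2.52 CPM, the ephrin receptor EPHA4 from 81.1 ± 6.32 to 33.1 ± 1.51 CPM, and the ETS factor ETV1 from 2.22 ± 0.252 to 0.537 ± 0.205 CPM. Members called higher were FOSL2, SPRY1 and HBEGF. IER3 and DUSP6 overlap antisense genes over 26.5% and 40.5% of their exon length.

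Targets of NF-kB moved in both directions, 6 of 23 tested upward and 4 downward, with a median log2 fold change of -0.08; with the replicate number as a block, 7 were lower. Of the pathway's inhibitors, which NF-kB induces as feedback, NFKBIA and TNFAIP3 were not called. NFKBIA measured 43.2, 45.0, 46.5 and 40.0 CPM with PI103 and 40.6, 37.9, 41.8 and 38.1 CPM with the combination (-0.14 ± 0.0766, adjusted p = 0.217), and TNFAIP3 averaged 4.19 ± 0.716 and 3.98 ± 0.355 CPM (adjusted p = 0.843). IL8, a neutrophil chemokine, was low in both treatments, at 0.323, 0.208, 0.309 and 0.372 CPM with PI103 and 0.0516, 0.117, 0.142 and 0.208 CPM with the combination (-1.28 ± 0.521, adjusted p = 0.0898; 0.0271 with the replicate block and 0.0250 in a fit of the 8 libraries alone), so that the treatments touched at 0.208 CPM. CXCL10, a chemokine induced by interferon as well as by NF-kB, measured 0.507, 0.295, 0.771 and 0.485 CPM with PI103 and 3.91, 4.27, 4.23 and 5.55 CPM with the combination (3.12 ± 0.217, adjusted p = 1.05e-10). The adhesion molecule ICAM1 rose from 33.8 ± 2.12 to 58.0 ± 1.69 CPM, whereas TNFAIP2 fell from 47.7 ± 3.07 to 33.1 ± 2.38 CPM. The remaining called members were CXCL1, CXCL2, CXCL3 and LIF, which were higher, and REL, NFKBIB and NFKBIE, which were lower. Without PI103 replicate 3 or combination replicate 4, 3 members were called higher, and without PI103 replicate 2, 4 were. The number called lower was 2 without PI103 replicate 2 or 3 or combination replicate 1 or 4. Without replicate 4 of both treatments 4 were higher and 2 lower. Of 16 tested genes that encode the TAK1 complex and its kinase branches, MAPK14 was called higher and TAB1 lower, each in the fit of all libraries and in 2 of the 8 that left out a library. Each share was 6.25%, against 9.39% and 8.92% of all genes. With the replicate block 2 were lower, and without replicate 4 of both treatments 0 were called.

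Targets of the FOXO factors and receptors under feedback from PI3 kinase, which rise when that pathway is blocked, were lower in the combination in 10 of 23 tested members and higher in 1, PIK3R1. The median log2 fold change was -0.33. KLF4, a zinc finger factor of epithelial differentiation, measured 76.3, 74.2, 77.1 and 64.6 CPM with PI103 and 43.8, 41.4, 42.5 and 35.3 CPM with the combination (-0.84 ± 0.146, adjusted p = 0.000170). ERBB3, the receptor partner that recruits PI3 kinase, measured 86.7, 84.8, 87.9 and 92.2 CPM with PI103 and 60.2, 49.5, 59.5 and 64.9 CPM with the combination (-0.59 ± 0.0880, adjusted p = 2.48e-05). In both genes the treatments were well apart. FOXO1 fell from 15.3 ± 0.635 to 9.35 ± 0.523 CPM, and the other falling members were FOXO4, CCNG2, FBXO32, RBL2, PIK3IP1, SESN1 and IGF1R. PIK3IP1, an inhibitor of PI3 kinase, was low, at 0.569 ± 0.0828 and 0.215 ± 0.0564 CPM (-1.39 ± 0.438, adjusted p = 0.0278), and was not called without PI103 replicate 1 or 3 or combination replicate 2 or 4. INSR, the insulin receptor, averaged 28.5 ± 0.609 and 28.5 ± 2.89 CPM (adjusted p = 0.993), and IRS2 had no counts. Without PI103 replicate 1 or 3, combination replicate 2 or 4, or replicate 4 of both treatments, the number called lower was 6. Among 21 tested components of PI3 kinase and mTOR signalling 2 rose (9.52%) and 1 fell (4.76%), against 9.39% and 8.92% of all genes. Those that rose were the regulatory subunit PIK3R1, at 84.8 ± 3.81 and 125 ± 5.67 CPM, and its paralog PIK3R2, which shares 87.2% of its exon length with a readthrough gene. The catalytic subunit PIK3CA was lower, at 29.3 ± 3.96 and 20.5 ± 0.934 CPM.

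**Figure D2:**
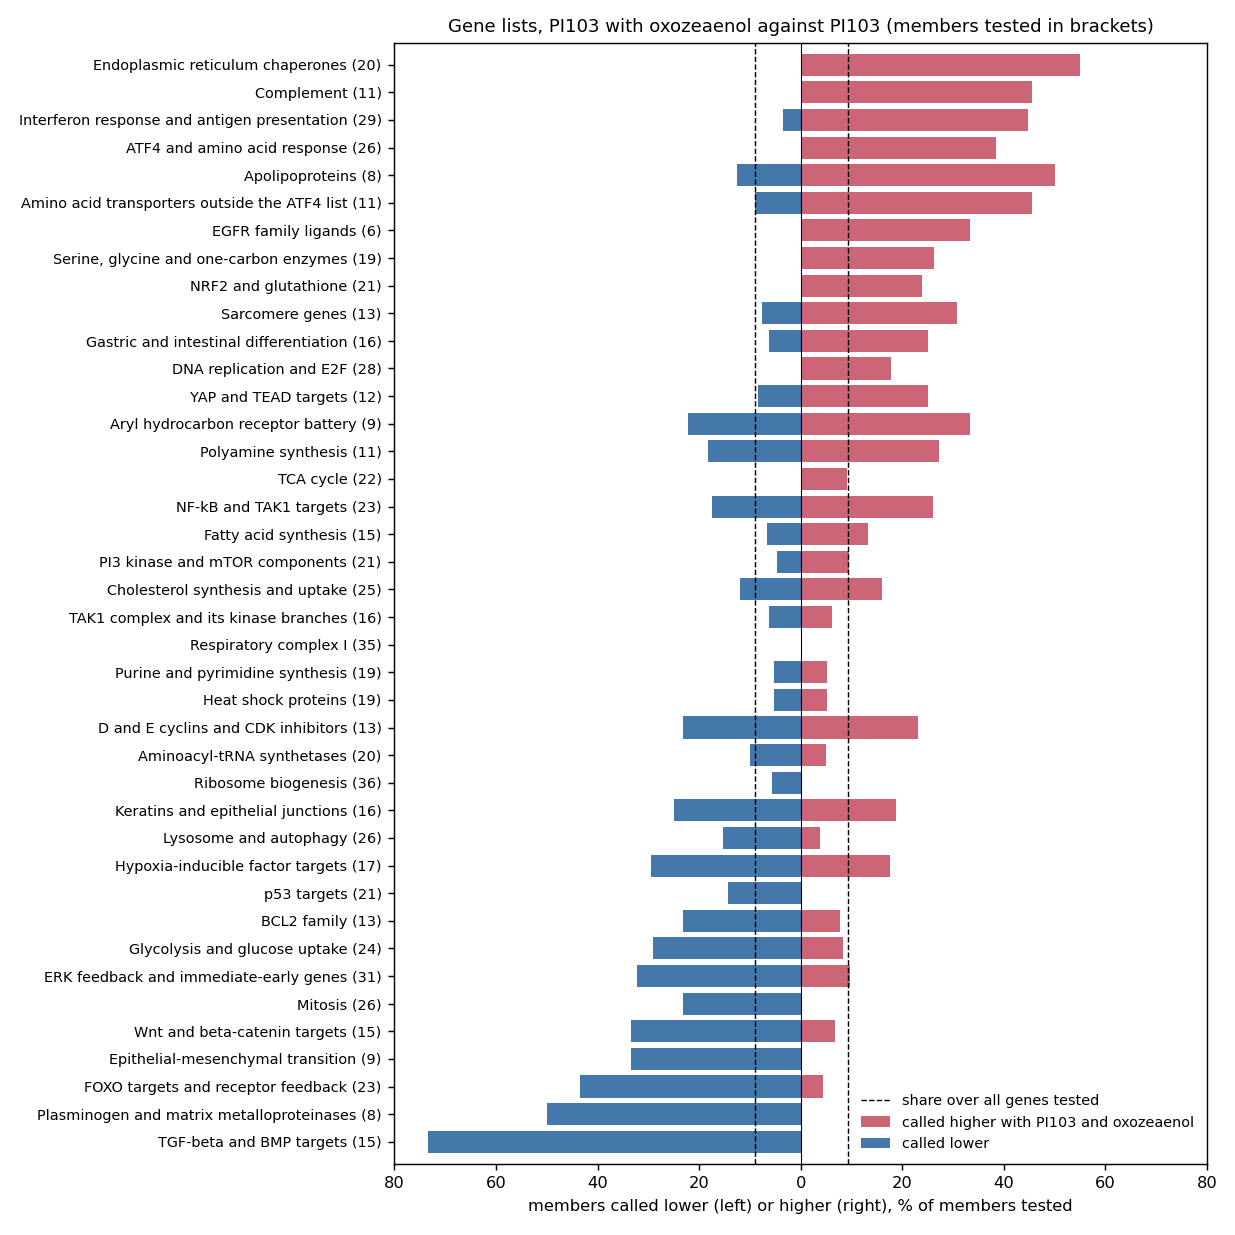
Share of tested members called higher (right) or lower (left) in the combination for 40 gene lists, as bars from 0, with the number of members tested in brackets and dashed lines at the shares over all genes tested (9.39% and 8.92%). TGF-beta and BMP targets extend furthest to the left and the endoplasmic reticulum chaperones furthest to the right.

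In metabolism, glycolysis and glucose uptake fell in 7 of 24 tested members and rose in 2 (4 with the replicate block; median log2 fold change -0.17). The share that fell was 29.2%, against 8.92% of all genes. The share that rose, 8.33%, was near the 9.39% of all genes. SLC2A1, the glucose transporter GLUT1, measured 1059, 983, 914 and 908 CPM with PI103 and 654, 639, 559 and 549 CPM with the combination (-0.69 ± 0.146, adjusted p = 0.00137). HK1, a hexokinase, fell from 6.69 ± 1.76 to 2.65 ± 0.919 CPM, and PFKFB3, which makes the activator of phosphofructokinase, from 40.6 ± 3.06 to 29.1 ± 0.461 CPM. PDK1, an inhibitory kinase of pyruvate dehydrogenase, was 1 of those that rose, from 8.33 ± 0.737 to 15.2 ± 1.30 CPM. The other was ALDOC. In the TCA cycle list the cytosolic and mitochondrial isocitrate dehydrogenases IDH1 and IDH2 rose, 2 of 22 tested, and 0 fell. The share higher, 9.09%, was near the 9.39% of all genes. IDH1 measured 284, 315, 317 and 329 CPM with PI103 and 464, 543, 516 and 500 CPM with the combination (0.70 ± 0.109, adjusted p = 4.06e-05). Of 35 tested subunits of respiratory complex I none was called in either direction, and 2 were higher with the replicate block. In polyamine synthesis, ODC1, the rate-limiting decarboxylase, measured 208, 225, 195 and 188 CPM with PI103 and 297, 332, 300 and 302 CPM with the combination (0.59 ± 0.0876, adjusted p = 1.98e-05). The catabolic enzyme SAT1 moved the other way, from 290 ± 28.9 to 179 ± 18.4 CPM (-0.69 ± 0.133, adjusted p = 0.000471). OAT and AMD1 were also higher and SMOX lower among 11 tested. Cholesterol synthesis had 4 of 25 tested members higher and 3 lower (1 without PI103 replicate 2 or combination replicate 1). HMGCS1, which commits acetyl units to that pathway, was not called (0.11 ± 0.180, adjusted p = 0.726). Fatty acid synthesis had 2 of 15 higher (13.3%) and 1 lower (6.67%), against 9.39% and 8.92% of all genes. In fatty acid synthesis 1 was higher without PI103 replicate 2, combination replicate 4 or replicate 4 of both treatments.

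Among cell cycle genes, called members of the replication list were higher and called members of the mitotic list lower, in numbers that depended on the fit. The G1 cyclin CCNE1 measured 68.3, 65.7, 59.3 and 57.0 CPM with PI103 and 97.9, 86.5, 88.8 and 91.8 CPM with the combination (0.54 ± 0.0838, adjusted p = 3.58e-05). CCNE2 rose from 73.3 ± 9.64 to 137 ± 15.4 CPM and CCND3 from 54.0 ± 4.30 to 68.5 ± 3.31 CPM. CDKN2B, the CDK4 and CDK6 inhibitor p15, measured 57.2, 54.3, 63.5 and 62.3 CPM with PI103 and 25.6, 30.6, 26.2 and 30.0 CPM with the combination (-1.08 ± 0.128, adjusted p = 8.25e-07). The cyclin list as a whole had 3 of 13 tested members higher, the cyclins just named, and 3 lower, CDKN2B, CCND1 and CDKN1A, the last of which was called in 3 of the 8 fits that left out a library. DNA replication genes had 5 of 28 tested members higher and 0 lower (median log2 fold change 0.29), CDC45, CLSPN, FEN1, E2F1 and GINS3; 13 were higher with the replicate block, 21 in a fit of the 8 libraries alone, 1 without replicate 4 of both treatments and 2 to 4 when a single library was left out. CDC45, part of the replicative helicase, rose from 42.1 ± 3.61 to 60.6 ± 3.13 CPM (adjusted p = 0.00503). Mitotic genes had 6 of 26 lower and 0 higher (median log2 fold change -0.40); 21 were lower in a fit of the 8 libraries alone, 1 without replicate 4 of both treatments and 2 to 5 when a single library was left out. The kinase NEK2 measured 154, 135, 158 and 161 CPM with PI103 and 81.3, 98.4, 84.6 and 76.9 CPM with the combination (-0.83 ± 0.227, adjusted p = 0.0118; 0.0714 without replicate 4 of both treatments). In the BCL2 family, 1 of 13 tested members rose (BIK) and 3 fell (BMF, BBC3 and BOK). These shares were 7.69% and 23.1%, against 9.39% and 8.92% of all genes. With the replicate block 2 rose, and without replicate 4 of both treatments 0 did. Of the falls, 1 was still called without combination replicate 4. BMF, a BH3-only protein that promotes apoptosis, measured 54.2, 46.7, 50.3 and 51.0 CPM with PI103 and 24.4, 19.1, 24.7 and 23.9 CPM with the combination (-1.13 ± 0.163, adjusted p = 1.82e-05). BBC3 (PUMA) was at -0.49 ± 0.135 (adjusted p = 0.0121) and was not called without combination replicate 4.

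Differentiation genes changed in a few members. In the sarcomere list 4 of 13 tested members rose (TNNT2, TTN, TNNC1 and MYL3) and 1 fell (TPM1). These shares were 30.8% and 7.69%, against 9.39% and 8.92% of all genes. TTN, the giant spring protein titin, measured 0.461, 0.572, 0.411 and 0.856 CPM with PI103 and 4.63, 4.93, 5.71 and 9.71 CPM with the combination (3.43 ± 0.352, adjusted p = 1.6e-07), and TNNC1, the slow and cardiac troponin C, rose from 14.9 ± 1.60 to 43.7 ± 2.89 CPM. In the gastric and intestinal list 4 of 16 tested members rose (CDH17, MUC1, SOX2 and LGALS4) and 1 fell (GATA6); without combination replicate 2, 2 were called higher. LGALS4 was called in 1 of the 8 fits that left out a library and GATA6 in 3, and neither was called without replicate 4 of both treatments. CDH17, the liver-intestine cadherin, measured 123, 108, 109 and 107 CPM with PI103 and 248, 228, 219 and 204 CPM with the combination (1.01 ± 0.101, adjusted p = 5.27e-08). MUC1, a membrane mucin, rose from 38.6 ± 2.25 to 76.5 ± 9.67 CPM. The aryl hydrocarbon receptor battery, which metabolises planar aromatic compounds, rose in 3 of 9 tested members (CYP1A1, ALDH3A1 and UGT1A6) and fell in 2 (ARNT and TIPARP), of which TIPARP was called in 2 of the 8 fits that left out a library. CYP1A1, its most inducible monooxygenase, measured 0.477, 0.503, 0.411 and 0.452 CPM with PI103 and 3.00, 5.29, 3.52 and 4.83 CPM with the combination (3.16 ± 0.539, adjusted p = 0.000210). UGT1A6 shares 44.0% of its exon length with other genes of its locus.

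Addition of oxozeaenol was then read without PI103, as oxozeaenol at 0.5 µM against control, which uses none of the 8 libraries. It is not the same step, since its oxozeaenol dose is higher than the 0.25 µM of the combination. It also lacks the lowering of PI103 from 0.7 to 0.35 µM. That comparison called 51.9% of all genes, 25.7% higher and 26.1% lower. Of the 1309 genes higher in the combination, 967 (73.9%) were also higher with oxozeaenol alone and 90 (6.88%) were lower. Of the 1244 lower genes, 790 (63.5%) were also lower and 62 (4.98%) were higher. Seen from the other side, those shared genes made up 26.9% of the genes higher and 21.7% of the genes lower with oxozeaenol alone. Across the 13947 genes the log2 fold changes of the comparisons had a Pearson correlation of 0.574 and a Spearman correlation of 0.492, given as a description since genes are not independent replicates. PD0325901 alone against control called 28.7% of all genes higher and 29.9% lower. Of the genes higher in the combination, 848 (64.8%) were also higher with PD0325901 alone and 170 (13.0%) were lower. Of the lower genes, 589 (47.3%) were also lower and 239 (19.2%) were higher. The Pearson correlation was 0.413 and the Spearman correlation 0.259. All 24 leading genes were called with oxozeaenol alone, and 23 moved in the same direction; SLC6A9 fell there by 0.90.

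**Figure D3:**
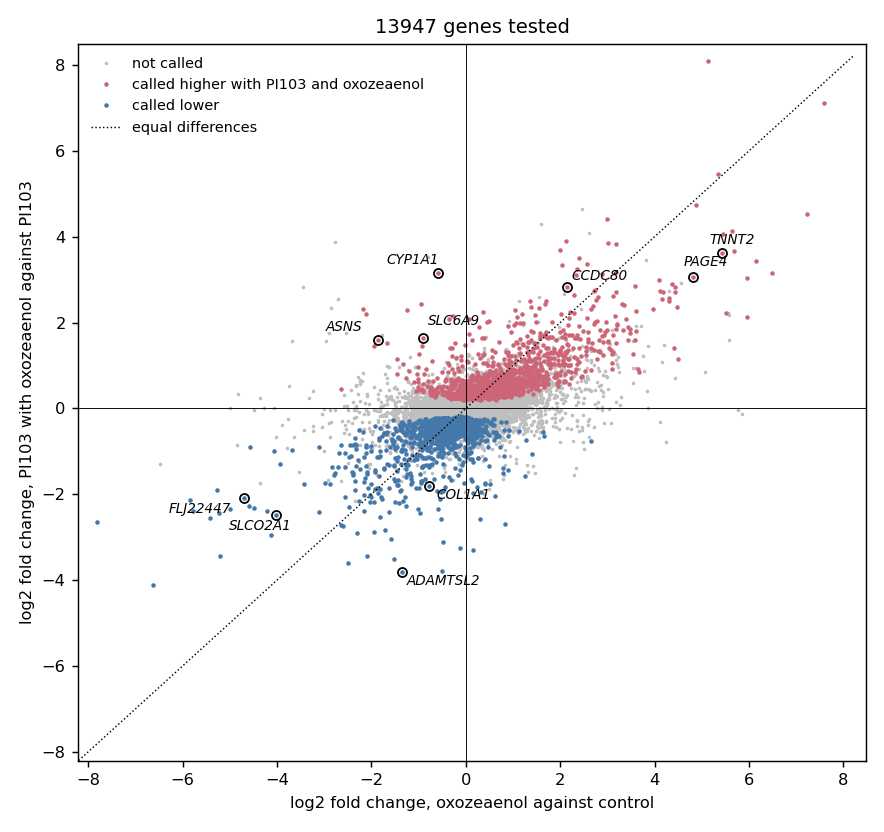
Log2 fold change of the combination against PI103 (vertical axis) and of oxozeaenol against control (horizontal axis) for 13947 genes, with called genes of the vertical comparison coloured and equal differences on the dotted line. Most coloured genes lie in the upper right and lower left, while ASNS, SLC6A9 and CYP1A1 lie in the upper left.

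Whether the steps differed was tested directly, as the log2 fold change with PI103 minus that without it, and 3184 genes (22.8%) were called. Since doses differ between the steps, this is not a test at matched dose. Among the 1309 genes higher in the combination the step was larger with PI103 for 187, smaller for 266 and not called different for 856. Among the 1244 lower genes it was above the step alone for 150, below it for 227 and not called different for 867. Of the 24 leading genes 11 differed. The rise of TNNT2 was smaller beside PI103 (difference -1.79, adjusted p = 0.000631), while the fall of ADAMTSL2 was deeper (-2.46, adjusted p = 8.76e-06), as was that of COL1A1 (-1.03, adjusted p = 2.38e-06). The amino acid genes went in opposite directions: ASNS changed by 1.60 with PI103 and by -1.86 without it (difference 3.46, adjusted p = 5e-05), SLC3A2 by 0.65 and -0.70 (1.34, adjusted p = 6.25e-07), and SLC6A9 by 1.65 and -0.90 (2.55, adjusted p = 3.75e-06). The readouts DUSP6, EGR1 and IL8 fell with oxozeaenol alone, whereas their differences beside PI103 were not called, although DUSP6 and IL8 passed in a fit of the 8 libraries alone. DUSP6 changed by -0.49 with PI103 and by -2.54 without it (difference 2.06, adjusted p = 0.000417), EGR1 by -0.86 and -4.85 (3.99, adjusted p = 0.00012), and IL8 by -1.28 and -6.47 (5.19, adjusted p = 2.71e-05). Against control, the median log2 fold change of the ERK list was -1.20 with PI103, -1.26 with the combination and -1.66 with oxozeaenol alone. IL8 was already low with PI103, as given above. What part the level with PI103 has in these step differences was not tested. For the interferon gene OASL the steps were 1.35 and 1.57 and their difference was not called (adjusted p = 0.337).

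**Figure D4:**
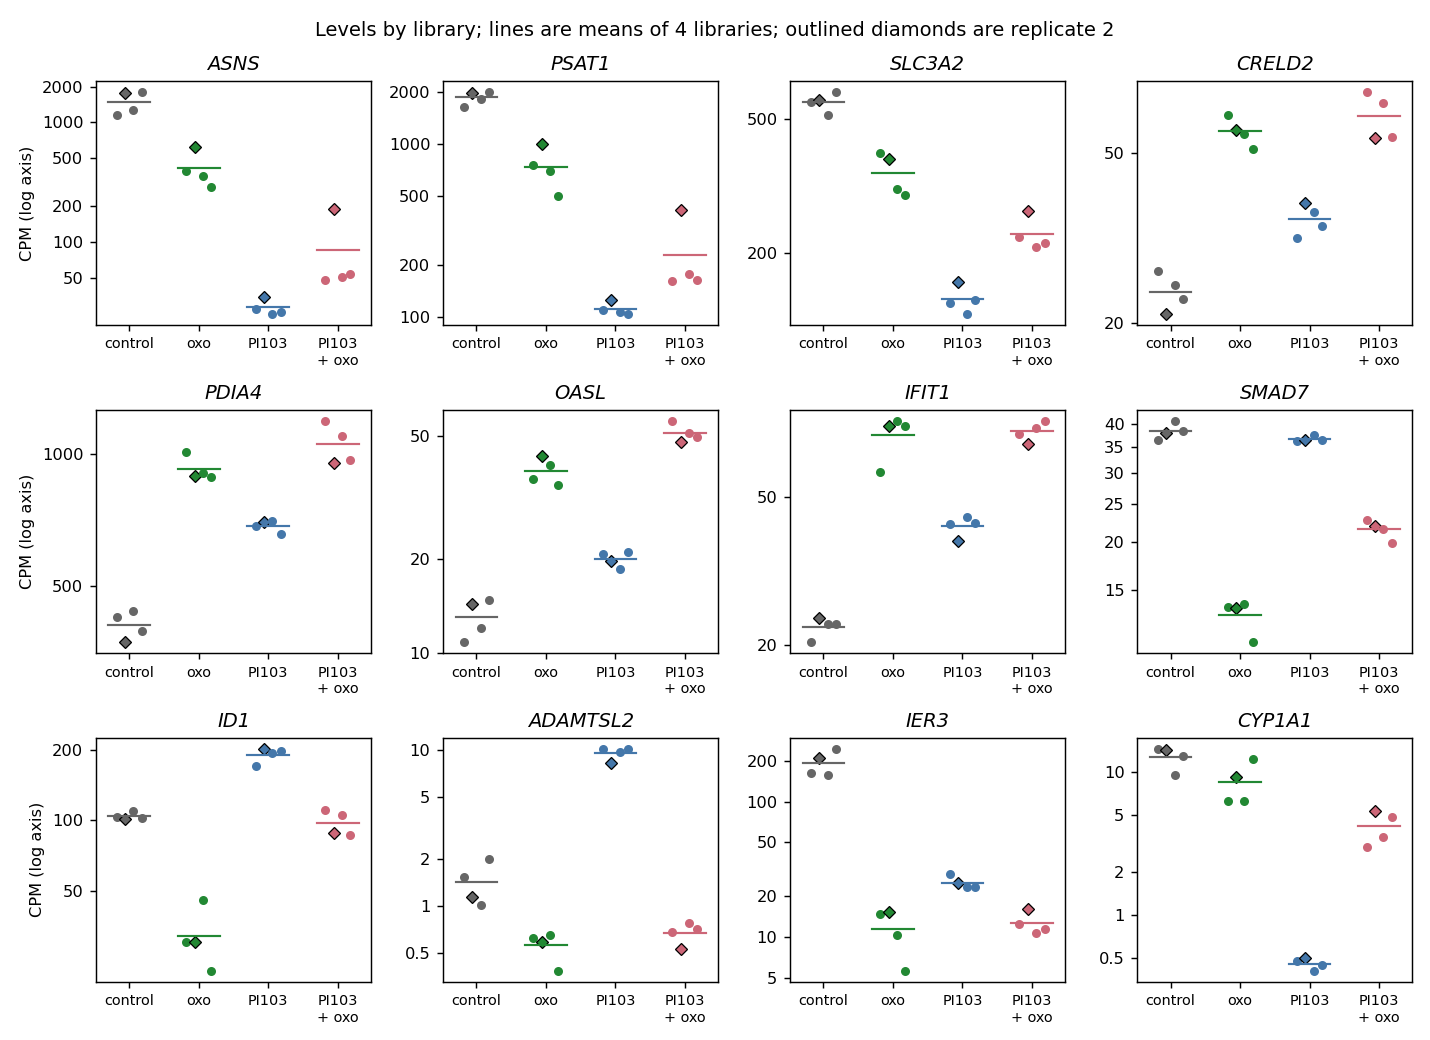
CPM on a log axis of 12 genes in 4 groups (control, oxozeaenol shortened to oxo, PI103, and PI103 with oxozeaenol), 1 point per library, with lines at the means and outlined diamonds for replicate 2. ASNS, PSAT1 and SLC3A2 are highest in the control and lowest with PI103, whereas ADAMTSL2 is highest with PI103, at 9.53 CPM against 1.43 CPM in the control and 0.564 CPM with oxozeaenol alone.

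The second partner drug gave a reference at a matched PI103 dose of 0.35 µM. The combination with oxozeaenol differed from PI103 with PD0325901 in 4170 genes (29.9%), 15.6% higher and 14.3% lower. The count was 2702 when replicate 2 of the PD0325901 combination was left out. Of the leading genes, 15 of 24 were among the 4170. This comparison shares the 4 combination libraries with the contrast described above. Set against PI103 alone, PI103 with PD0325901 had a median log2 fold change of 0.87 for interferon genes and 0.51 for endoplasmic reticulum chaperones. Complement was at 0.98 and apolipoproteins at 1.36. With oxozeaenol these medians were 0.34, 0.34, 0.70 and 0.62. The ATF4 list was at 0.12 with PD0325901 and 0.67 with oxozeaenol, and TGF-beta and BMP targets at -0.13 and -0.56. TNNT2 stood at 12.5 ± 0.901 CPM with oxozeaenol and 12.9 ± 4.39 CPM with PD0325901 (log2 fold change -0.05, adjusted p = 0.876), and SLCO2A1 also was not called (-0.63, adjusted p = 0.262). COL1A1 was lower with oxozeaenol, at 9.45 ± 0.851 against 22.1 ± 1.70 CPM (-1.23, adjusted p = 4.9e-10), as were ADAMTSL2 (-1.70, adjusted p = 8.14e-06), FSCN1 (-1.76, adjusted p = 5e-09), CDKN2B (-1.78, adjusted p = 4.9e-10) and BMF (-1.90, adjusted p = 1.62e-08). Genes of ERK feedback were higher with oxozeaenol than with the MEK inhibitor: DUSP6 by 3.17 (adjusted p = 1.14e-07), SPRY4 by 2.55 (adjusted p = 6.19e-07) and ETV5 by 3.09 (adjusted p = 0.0001) on the log2 scale. Among metabolic genes, PSAT1 was higher by 1.25 (adjusted p = 0.000979), ODC1 by 0.89 (adjusted p = 6.85e-08) and SLC2A1 by 0.73 (adjusted p = 0.000548). For PSAT1 the oxozeaenol combination included replicate 2, at 412 CPM against 161 to 177 CPM in its other libraries.

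The remaining lists are given by their counts, against 18.3% of all genes called. Aminoacyl-tRNA synthetases had 1 of 20 tested members higher (WARS; 0 without combination replicate 2) and 2 lower (QARS and KARS; 4 with the replicate block, 0 without PI103 replicate 2 or combination replicate 4), ribosome biogenesis 0 of 36 higher and 2 lower (UBTF and GAR1), and purine and pyrimidine synthesis 1 of 19 higher (CTPS) and 1 lower (IMPDH2). In ribosome biogenesis and in purine and pyrimidine synthesis no member was called without replicate 4 of both treatments. Lysosome and autophagy genes had 1 of 26 tested members higher (GAA, acid alpha-glucosidase; 3 with the replicate block) and 4 lower, among them GABARAPL1 and CTSB. The NRF2 and glutathione list had 5 of 21 higher (3 without PI103 replicate 1) and 0 lower, led by HMOX1, heme oxygenase, which rose from 31.1 ± 1.60 to 44.7 ± 2.37 CPM (adjusted p = 0.00246). Hypoxia-inducible factor targets had 3 of 17 higher and 5 lower (3 without PI103 replicate 1 or 3 or combination replicate 2, 3 or 4), keratins and epithelial junctions 3 of 16 higher and 4 lower, and the targets of YAP and TEAD 3 of 12 higher and 1 lower (AXL), the latter not called in any of the 8 fits that left out a library. Ligands of the EGFR family rose in 2 of 6 tested members (TGFA and HBEGF), but in 0 of them without PI103 replicate 4 and in 1 without combination replicate 1, 2 or 3. Targets of p53 fell in 3 of 21 tested members (BBC3, CDKN1A and SESN1) and rose in 0, with 1 called lower without PI103 replicate 1 or combination replicate 2 or 3, and 0 without combination replicate 4 or without replicate 4 of both treatments.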

How the data were processed

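RNA of AGS cultures was sequenced with a stranded mRNA kit, per the labels' protocols. The authors deposited 1 table of raw counts per gene symbol for 24 libraries; GRCh38 is the build named in the submitters' processing notes, and the aligner, counter and strand setting are not given in the sources used here. Rows that tally reads without a gene were left out. In the 8 libraries compared, reads without a feature came to 5.84% to 8.50% and ambiguous reads to 1.73% to 1.86%. Reads aligned more than once came to 5.17% to 6.05%. The base of these percentages was gene counts plus the reads tallied without a gene. Groups were taken from the sample titles.

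The counts of all 24 libraries were fitted with edgeR 4.0.16 in R 4.3.3 (TMM scaling, filterByExpr, 1 coefficient per group, robust quasi-likelihood F test, two-sided, Benjamini-Hochberg over 13947 genes, biological coefficient of variation 0.131). Standard errors were obtained as the absolute log2 fold change over the root of F. On simulated counts for 13644 genes the fit recovered 83% of 2-fold and 97.9% of 4-fold changes placed in the combination. Apart from these changes, each gene had the same simulated mean in all groups. No batch or outlying library was simulated, so recovery in the real libraries may differ. Alternatives were a replicate block, RLE scaling, DESeq2 1.42.0, no filter, the 8 libraries alone, a required change above 1 (log2), and each library left out; leaving out replicate 4 of both treatments was added after seeing the data.

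The named genes are the 12 largest rises and falls among called genes averaging 5 CPM or more and moving one way in all 4 batches, 12 readouts, and up to 4 members per list with the smallest adjusted p. ASNS, CHAC1, SLC7A11, NUPR1, HSPA5, IRF7, C1S, SLC2A1 and PFKFB3 were given values after their values were seen, and other called members are named only as such; some called list members are not reported here by name. The comparison, the gene lists and the readouts were chosen with earlier results of these data known. Overlaps of exons are from GENCODE 29 and promoters from RefSeq. The labels give the replicate number as a batch, which pairs the libraries; deviations from the group means correlated at 0.0911, 0.150, 0.0369 and 0.401 between libraries of the same number.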

Additional observations from a re-analysis of the deposited data

Results flagged for a closer look

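In groups of 4, a library was noted where its gap to the nearest other as a share of the group's range exceeded Dixon's critical value, which chance alone gives in about 1 of 20 groups. Over 206 groups of 4, from the 103 tested genes given with values in the report, 19 libraries were noted, and 13 of these were replicate 2 of the combination. In that library the high values were ASNS at 189 CPM (others 47.2 to 53.7), PSAT1 at 412 CPM (161 to 177), MTHFD2 at 278 CPM (158 to 168), SLC7A5 at 388 CPM (267 to 277), SLC7A11 at 51.3 CPM (7.62 to 10.0), CHAC1 at 27.7 CPM (5.17 to 6.91), SLC6A9 at 20.6 CPM (9.82 to 11.4), NUPR1 at 3.52 CPM (0.568 to 0.729), ODC1 at 332 CPM (297 to 302), HMOX1 at 48.3 CPM (43.2 to 43.8) and CFI at 0.735 CPM (0.398 to 0.445). Its low values were IFI27 at 7.75 CPM (9.29 to 9.54) and BMF at 19.1 CPM (23.9 to 24.7). Most of the high genes belong to the ATF4 and serine lists. ASNS, CHAC1, SLC7A11 and NUPR1 are among the genes given values after their values were seen. The number of noted libraries and the weight of these lists therefore depend in part on how the genes were chosen.

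Elsewhere, combination replicate 4 was high for TNFAIP2 at 36.7 CPM. Among the PI103 libraries, replicate 1 was high for CDH17 at 123 CPM and NUPR1 at 0.338 CPM, replicate 2 for SLC6A9 at 5.55 CPM and CHAC1 at 6.14 CPM, and replicate 4 for PAGE4 at 22.2 CPM.

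The step from PI103 to the combination differed from the step from control to oxozeaenol alone, by the edgeR test of the difference, in 18 of 35 leading genes and readouts. The difference, in log2 units and with PI103 minus without it, was above 0 for IL8 (5.19), EGR1 (3.99), FLJ22447 (2.61), SLC6A9 (2.55), DUSP6 (2.06), SPRY4 (1.57), CCDC80 (0.69), ODC1 (0.60) and MALL (0.51). It was below 0 for ADAMTSL2 (-2.46), PIK3IP1 (-2.17), TNNT2 (-1.79), PAGE4 (-1.75), COL4A1 (-1.37), USH1C (-1.21), HMGCS1 (-1.09), COL1A1 (-1.03) and LBH (-0.96). Doses differ between the steps, and the sources of these differences were not tested.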

How the results depend on the processing

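The 2553 genes called between the combination and PI103 became 3347 with the replicate block, 2549 with RLE scaling, 2885 with DESeq2, 2278 with no filter, and 1866 to 2259 when 1 library was left out. They became 4088 when only the 8 libraries were fitted, of which 1947 were higher and 2141 lower, 108 when a change above 1 on the log2 scale was required, of which 61 were higher and 47 lower, and 1580 without replicate 4 of both treatments, of which 817 were higher and 763 lower. When 1 library was left out, 994 to 1172 genes were higher and 871 to 1111 lower. The 3184 genes whose steps differed became 3978 with the replicate block and 2525 to 3147 when 1 library was left out (1307 to 1733 above 0 and 1218 to 1537 below). The 4170 genes that differed from PI103 with PD0325901 became 5075 with the block and 2702 to 3997 when 1 library was left out (1470 to 2197 higher and 1232 to 1927 lower), the lowest count being without replicate 2 of the PD0325901 combination.

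Of the 94 called genes given with values, none changed direction, and all kept the call with RLE scaling and with DESeq2, 93 with the replicate block (SLC7A11 was lost), 91 with no filter (CHAC1, SLC7A11 and HSPA5 were lost), 88 without replicate 4 of both treatments and 28 with the required change. Of these genes 87 were called whichever library was left out. The block changed no other call among these 94 genes; of those not called, it changed IL8. Log2 fold changes of 2 genes that were not called crossed 0: when 1 library was left out TNFAIP3 ran from -0.17 to 0.031, above 0 without PI103 replicate 1, and INSR from -0.037 to 0.067, above 0 without PI103 replicate 1, 3 or 4 or combination replicate 2. The causes were not tested.

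Limits: the contrast changes the doses of both agents, there is 1 cell line, and strand use in the counting is not given, so overlapping antisense genes cannot be told apart. Counts of list members that lie near the threshold, such as chaperones, replication and mitotic genes, moved with single libraries. In the fit of the 8 libraries alone, NF-kB targets had 8 members lower, p53 targets 7, ribosome biogenesis 6 and cholesterol synthesis 5, and cholesterol synthesis had 7 and lysosomal genes 5 higher. In simulated counts 2-fold changes were recovered less completely (83%) than 4-fold changes (97.9%), and smaller ones were not simulated.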
